A study of Mus musculus with 12 samples.

Results

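Seli encodes ethanolamine phosphotransferase (also called Selenoi or EPT1), a selenoprotein and 1 of the 23 selenoprotein genes in the deposited tables. It was chosen by its mRNA values, which differed in opposite directions with dietary selenium in the 2 genotypes studied, so those differences are given below as a description only. Ribosome footprints and mRNA were sequenced from liver of FVB/N mice. One genotype was wild type (Wt), and the other carried 20 copies of a transgene for a mutant selenocysteine tRNA, TrspA37G. Mice of both genotypes ate a diet of 0, 0.1 or 2.0 ppm selenium for 6 weeks. Each genotype and diet gave 1 footprint library and 1 mRNA library, 12 libraries in 12 groups of 1. The labels give an age of 3 weeks, shorter than the feeding, so the age at sampling is taken as not known. The number of mice behind a library, the promoter of the transgene and whether these mice kept their own copies of the tRNA gene are not stated in the labels.

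Ethanolamine phosphotransferase sits in internal membranes and carries out the last step of the Kennedy pathway to phosphatidylethanolamine, the transfer of phosphoethanolamine from CDP-ethanolamine to diacylglycerol. Liver uses phosphatidylethanolamine for membranes and lipoproteins and as a source of phosphatidylcholine. Like other selenoproteins, the enzyme holds selenocysteine, which is inserted at a UGA codon by a dedicated tRNA with the help of a hairpin in the 3' untranslated region. Without insertion, UGA acts as a stop codon. The change in this transgene removes a modified base beside the anticodon of this tRNA, and this mutant tRNA is known to limit the synthesis of some selenoproteins more than others.

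In the annotation the gene (Selenoi in GENCODE M21, build GRCm38) lies on the plus strand of chr5:30232581-30272427 and its UGA codon is in exon 10 of 10, in the coding sequence, at chr5:30266964-30266966. A processed pseudogene, Gm16288, overlaps it on the opposite strand at chr5:30240082-30240448. This overlap is with the whole gene span, and whether it reaches an exon of Seli was not checked. Whether the authors' counting used strand is not stated. Only where an exon is reached could mRNA reads counted for Seli belong to either. UGA is codon 388 of 398 and is followed by 10 codons before the stop codon. The end of the coding sequence of Seli is printed here, from codon 367 to the stop codon, because the 3' window of the study lies in it. It is followed by the ends of the other 6 genes in the tables that have their UGA next to the stop codon. All are from GENCODE M21 transcripts, written 5' to 3', and capitals mark the UGA codon as TGA.
Seli: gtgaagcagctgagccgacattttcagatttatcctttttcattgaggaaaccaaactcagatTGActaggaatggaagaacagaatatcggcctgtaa
Selk: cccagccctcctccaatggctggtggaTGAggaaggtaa
Sels: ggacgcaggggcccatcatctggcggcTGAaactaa
Selo: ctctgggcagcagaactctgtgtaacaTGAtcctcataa
Txnrd1: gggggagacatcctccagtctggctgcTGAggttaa
Txnrd2: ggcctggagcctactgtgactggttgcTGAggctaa
Txnrd3: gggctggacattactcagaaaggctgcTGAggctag
Selk and Selo have 2 codons between UGA and the stop codon, and Sels and the 3 thioredoxin reductases have 1. These 6 genes are listed at 0 in every library of the deposited 3' table. Seli, with 10 codons, is the member of this late-UGA list that has values there.

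The deposited values scale reads to the length of a region and to the mapped reads of a library (RPKM for mRNA, RPFKM for footprints), and whole reads could be recovered from them. The libraries held 17763406 to 30296837 mapped footprints and 10669213 to 16709701 mapped mRNA reads. For Seli, the coding window is 1137 nt, the 5' window 1101 nt and the 3' window 18 nt, with 18 nt between them. If those 18 nt end with the UGA codon, which was inferred from lengths and was not tested, the 5' window spans codons 16 to 382 and the 3' window codons 389 to 394. That leaves out 15 codons at the start and 4 before the stop codon, 1 more than the file headers give, so the placement may be off by a codon. The 3' window of Seli is the shortest in the tables, followed by Sepx1 with 51 nt. A footprint is longer than this window, and which base of a footprint decides its window is not stated. With 1 library a group, no comparison of single libraries has a replicate check or a test. Each comparison below has a 95% interval for counting error only, and a difference is called where it is at least 1.5-fold and its interval leaves out no difference, with at least 10 reads over the pair of libraries. Reads are not independent molecules where PCR copied them. In bulk liver, fewer cells of a type and less RNA per cell cannot be told apart.

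Seli mRNA was 18.9 RPKM in Wt liver at 0 ppm selenium (95% interval 18.1 to 19.7, 2138 reads), 16.3 at 0.1 ppm (15.5 to 17.1, 1569 reads) and 17.2 at 2.0 ppm (16.3 to 18.1, 1444 reads). In TrspA37G liver it was 12.3 RPKM at 0 ppm (11.6 to 13.1, 1035 reads), 24.2 at 0.1 ppm (23.1 to 25.4, 1748 reads) and 20.2 at 2.0 ppm (19.3 to 21.2, 1787 reads). The lowest and the highest of the 6 values were thus both in TrspA37G liver, 1.96-fold apart, and the 3 Wt values lay between them. In the order of levels, TrspA37G at 0 ppm is followed by Wt at 0.1, 2.0 and 0 ppm and then by TrspA37G at 2.0 and 0.1 ppm. Of neighbours in this order, Wt at 0.1 and at 2.0 ppm differed by less than their counting error.

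**Figure D1:**
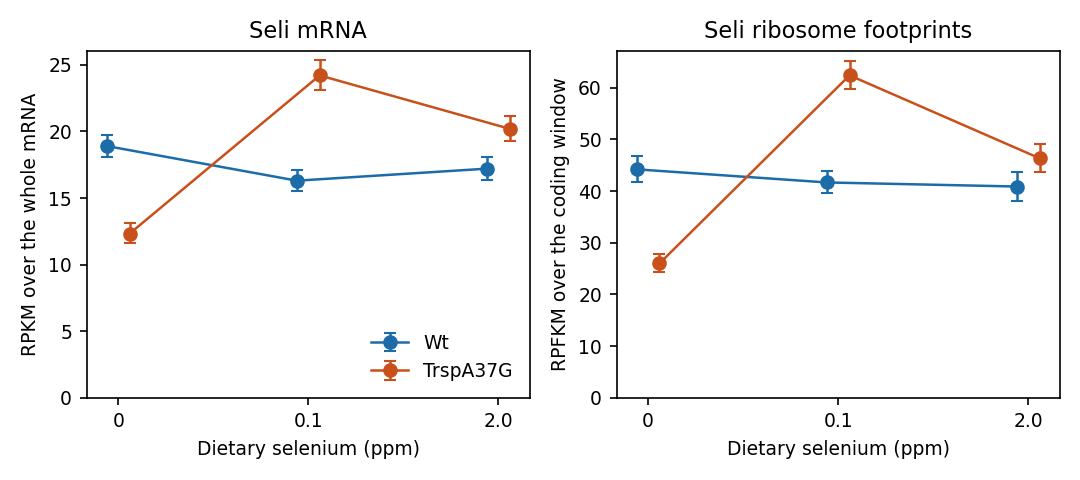
Seli in each of the 12 libraries against the selenium of the diet (categories, in ppm), with mRNA in RPKM over the whole mRNA on the left and ribosome footprints in RPFKM over the coding window on the right. Points are single libraries and bars are 95% counting intervals. The Wt points stay between 16.3 and 18.9 RPKM and between 40.9 and 44.2 RPFKM, while the TrspA37G points run from 12.3 to 24.2 RPKM and from 26.0 to 62.4 RPFKM.

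Without selenium, Wt liver had 1.16-fold more Seli mRNA than at 0.1 ppm (interval 1.09 to 1.24), a difference under the 1.5-fold limit. TrspA37G liver had 1.96-fold less at 0 than at 0.1 ppm (1.82 to 2.12), which was called. In that TrspA37G comparison 30% of the 20 genes tested were called, all of them lower, and in the Wt comparison 20% were. Since these mRNA values chose the gene, nothing is read from its place among the 30%. The ratio of both diet responses was -1.19 on the log2 scale (-1.33 to -1.04), a direction in which 15% of the genes were called. At 2.0 against 0 ppm, Seli mRNA was 1.64-fold higher in TrspA37G (1.52 to 1.77) and 1.10-fold lower in Wt (1.03 to 1.18). The TrspA37G difference was called, as were 40% of the genes in that direction. Over the coding window the TrspA37G difference was 1.31-fold (1.13 to 1.51), under the limit, and Wt was 0.051 higher on the log2 scale (-0.13 to 0.23), so the signs were not opposite there.

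The scale on which these mRNA values are read matters, because all genes in the tables are selenoprotein genes and their median moves too. The median of the 20 genes was -0.24 (log2) at 0 against 0.1 ppm in Wt and -0.44 in TrspA37G. Relative to these medians Seli was 0.45 higher in Wt and 0.53 lower in TrspA37G, so the opposite signs stayed but the TrspA37G difference was no longer called. Over the coding window alone, Seli mRNA was 1.11-fold higher in Wt at 0 than at 0.1 ppm (0.978 to 1.25) and 1.74-fold lower in TrspA37G (1.51 to 2.01). Outside the coding window the same differences were 1.18-fold higher (1.09 to 1.28) and 2.06-fold lower (1.88 to 2.27). The interval of the Wt coding window includes no difference. In the short 3' window Wt mRNA was lower at 0 ppm, 79.8 RPKM (51.1 to 119, 24 reads) against 121 (82.3 to 172, 31 reads), within counting error. These are reads of the same libraries that chose the gene.

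Of the 20 genes, 7 had mRNA differences of opposite sign in the 2 genotypes at 0 against 0.1 ppm, and 5 of them (Seli, Selo, Selt, Sephs2 and Sepx1) had both intervals clear of no difference. Selo, an enzyme that attaches AMP to proteins, was 0.23 higher in Wt and 0.14 lower in TrspA37G (log2). Sephs2, the selenophosphate synthetase that makes the selenium donor for selenocysteine, was 0.41 higher and 0.16 lower. Sepx1, a methionine sulfoxide reductase, had the reverse order, 0.12 lower in Wt and 0.14 higher in TrspA37G. Selt, a thioredoxin-like protein of the endoplasmic reticulum, was 0.09 higher and 0.45 lower. These signs are as deposited, and Seli was chosen for its own. The medians of the genes were -0.24 in Wt and -0.44 in TrspA37G. Selo, Sephs2 and Sepx1 lay above them in both genotypes, and Selt lay near the median in TrspA37G.

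**Figure D2:**
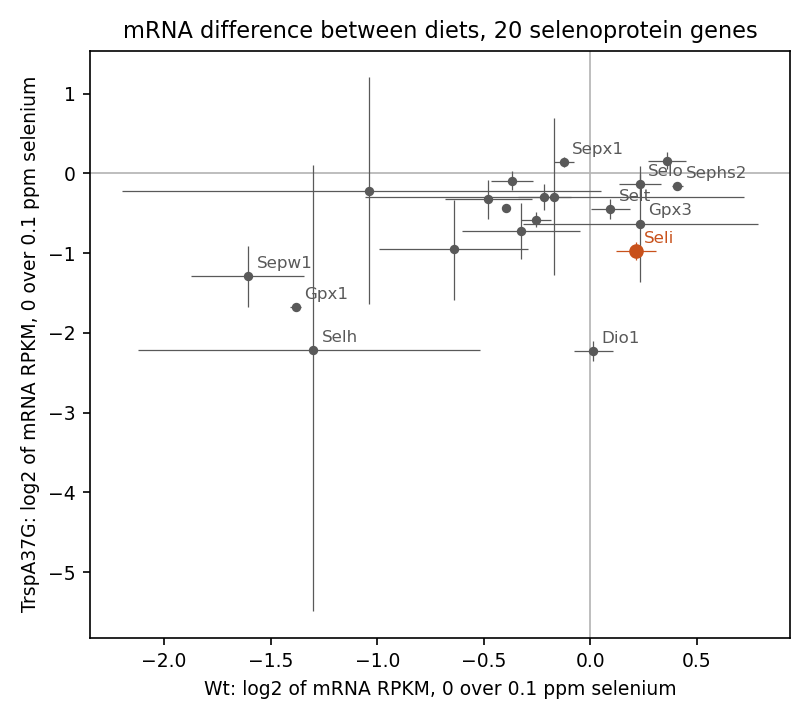
Difference in mRNA between 0 and 0.1 ppm selenium (log2 of the RPKM ratio) in Wt (horizontal) against TrspA37G (vertical) for the 20 selenoprotein genes with enough reads. Points are genes, bars are 95% counting intervals and Seli is in orange. Seli lies in the lower right, at 0.21 in Wt and -0.97 in TrspA37G, and of the genes right of 0 only Dio1 lies lower, at -2.23.

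At the same diet, TrspA37G liver had 1.53-fold less Seli mRNA than Wt at 0 ppm (1.42 to 1.65), which was called, together with 45% of the 20 genes, all lower. At 0.1 ppm it had 1.48-fold more (1.39 to 1.59) and at 2.0 ppm 1.17-fold more (1.09 to 1.26), neither past 1.5-fold. Here 20% of the genes were called lower at 0.1 ppm and 30% at 2.0 ppm, and 5% (Dio1) were called higher at 0.1 ppm. The medians of the 20 genes were -0.55, -0.23 and -0.43 (log2) at 0, 0.1 and 2.0 ppm. Relative to them Seli was 0.07 lower at 0 ppm, where the call ended, and 0.80 and 0.66 higher at 0.1 and 2.0 ppm, where it would be called. Over the coding window the difference at 0 ppm was 1.38-fold (1.2 to 1.58), under the limit. That at 2.0 ppm turned to 1.09-fold less in TrspA37G, with an interval (0.957 to 1.25) that includes no difference.

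Footprints over the coding window, the ribosomes on the mRNA, followed the same order at the extremes. In Wt liver Seli had 44.2 RPFKM at 0 ppm (41.8 to 46.8, 1204 footprints), 41.7 at 0.1 ppm (39.6 to 43.9, 1436 footprints) and 40.9 at 2.0 ppm (38.2 to 43.8, 826 footprints). In TrspA37G liver it had 26.0 at 0 ppm (24.3 to 27.8, 854 footprints), 62.4 at 0.1 ppm (59.8 to 65.1, 2116 footprints) and 46.4 at 2.0 ppm (43.7 to 49.1, 1167 footprints). The 3 Wt values did not differ between neighbours beyond counting error, and neither did Wt at 0 ppm from TrspA37G at 2.0 ppm.

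In Wt liver the footprints at 0 ppm were 1.06-fold those at 0.1 ppm (interval 0.982 to 1.15), and Seli was not among the 55% of 20 genes that were called lower in this comparison. In TrspA37G liver they were 2.40-fold lower (2.21 to 2.60), and 70% of the genes were called lower as well. The difference between both responses was -1.35 (log2, -1.51 to -1.19), where 15% of the genes were called lower and 25% higher. Relative to the medians of the genes, -0.73 in Wt and -1.08 in TrspA37G, Seli was 0.82 higher in Wt and 0.18 lower in TrspA37G, so that the Wt and not the TrspA37G difference would be called. These footprints come from other libraries than the mRNA that chose the gene, and the labels do not say whether the livers were the same.

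Between genotypes, Seli footprints were 1.70-fold lower in TrspA37G at 0 ppm (1.56 to 1.86), with 60% of the genes called lower. They were 1.5-fold higher at 0.1 ppm (1.40 to 1.60), a value just under the limit, and 1.13-fold higher at 2.0 ppm (1.04 to 1.24). At these diets 40% and 50% of the genes were called lower and none higher, and Seli had the highest ratio of the 20 genes at 0.1 ppm and the fourth highest at 2.0 ppm. The medians were -0.96, -0.48 and -0.67 (log2), and relative to them Seli was higher in TrspA37G at all 3 diets, by 0.20, 1.06 and 0.85, which turns its direction at 0 ppm.

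Footprints per mRNA differed less between libraries than the mRNA or the footprints did. Translational efficiency, here footprint RPFKM over the coding window divided by RPKM over the whole mRNA, was 2.34, 2.56 and 2.38 in Wt at 0, 0.1 and 2.0 ppm and 2.11, 2.58 and 2.30 in TrspA37G. Highest and lowest were 1.22-fold apart, against 1.96-fold for the mRNA and 2.40-fold for the footprints. No comparison of Seli was called. The widest was 0 against 0.1 ppm in TrspA37G, 1.22-fold lower (1.09 to 1.36), where 35% of the genes were called lower and 15% higher. With coding-window mRNA instead of whole mRNA, highest and lowest were 1.38-fold apart, and with 5' footprints instead of coding-window footprints 1.33-fold.

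Genotypes at the same diet differed in translational efficiency of Seli by -0.15 at 0 ppm (log2, -0.31 to 0.02), 0.01 at 0.1 ppm (-0.13 to 0.15) and -0.05 at 2.0 ppm (-0.21 to 0.11). The calls among the genes were 15%, 30% and 30%, all lower in TrspA37G. The medians were -0.26, -0.30 and -0.47, so Seli lay 0.11, 0.31 and 0.42 above them. With 5' footprints, efficiency at 0 ppm was 1.89 in TrspA37G (1.72 to 2.08) and 2.33 in Wt (2.17 to 2.50). These intervals do not overlap.

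The 3' window is the deposited stretch after the UGA codon, with the limits on its placement given above. Wt liver had 53.4 RPFKM there at 0 ppm (33.8 to 80.1, 23 footprints), 56.8 at 0.1 ppm (38.6 to 80.7, 31 footprints) and 53.2 at 2.0 ppm (31.0 to 85.1, 17 footprints). TrspA37G liver had 166 at 0 ppm (132 to 204, 86 footprints), 179 at 0.1 ppm (145 to 218, 96 footprints) and 90.3 at 2.0 ppm (63.3 to 125, 36 footprints). All 3 TrspA37G values were above all 3 Wt values, and the Wt values differed by less than their counting error. The nearest values of the genotypes, Wt at 0.1 ppm and TrspA37G at 2.0 ppm, were 1.59-fold apart. That interval (0.956 to 2.66) includes no difference.

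In the 3' window TrspA37G had 3.10-fold more Seli footprints than Wt at 0 ppm (1.94 to 5.15) and 3.15-fold more at 0.1 ppm (2.08 to 4.88), both called. At 2.0 ppm it had 1.70-fold more with an interval of 0.930 to 3.23, which includes no difference, while 61.5% of 13 genes were called lower and none higher. Seli was the gene called higher at 0 ppm, 9.09% of the 11 genes with enough footprints, and at 0.1 ppm, 8.33% of 12, while 72.7% and 50% were called lower. The medians of these genes were -1.38, -0.85 and -1.25 (log2) at the 3 diets. Over the 3 diets an exact permutation of genotype labels within diets cannot go below p = 0.25, two-sided, which is what the 3' window and the 3'/5' ratio gave, each higher in TrspA37G at 3 of 3 diets (0.75 after Benjamini-Hochberg adjustment over 6 quantities).

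With diet, the windows of Seli in TrspA37G differed between 0 and 0.1 ppm. At 0 against 0.1 ppm, 5' footprints were 2.60-fold lower (2.39 to 2.84), from 60.6 to 23.3 RPFKM, with 44.4% of 18 genes called lower and 5.56% higher, while 3' footprints were 1.08-fold lower (0.799 to 1.46). In this comparison 81.8% of the 11 genes were called lower in the 3' window, with a median of -2.06 (log2). Relative to that median Seli would be 1.95 higher. In Wt the corresponding value was 1.07-fold lower (0.601 to 1.91), against 76.9% of 13 genes called lower and a median of -1.09. At 2.0 against 0.1 ppm both windows were lower in TrspA37G, the 3' window 1.98-fold (1.34 to 2.99) and called, the 8.33% of 12 genes that were, and the 5' window 1.34-fold (1.25 to 1.45), under the limit, with 5.26% of 19 genes called higher. At 2.0 against 0 ppm they went opposite ways, the 3' window 1.83-fold lower (1.23 to 2.78), with 10% of 10 genes called lower and 80% higher, and the 5' window 1.94-fold higher (1.77 to 2.13), with 64.7% of 17 genes called higher and 5.88% lower.

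The ratio of 3' to 5' footprint density, often read as a measure of how many ribosomes pass the UGA, is taken within each library, so no scaling between libraries enters it. In Wt it was 1.21 at 0 ppm (0.766 to 1.83), 1.38 at 0.1 ppm (0.936 to 1.97) and 1.30 at 2.0 ppm (0.756 to 2.10). In TrspA37G it was 7.11 (5.62 to 8.90), 2.95 (2.38 to 3.62) and 2.00 (1.39 to 2.79). The Wt values did not differ across diets beyond counting error. The TrspA37G value at 0 ppm was the highest, and that at 2.0 ppm was 1.47-fold lower than at 0.1 ppm with an interval (0.998 to 2.18) that includes no difference.

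**Figure D3:**
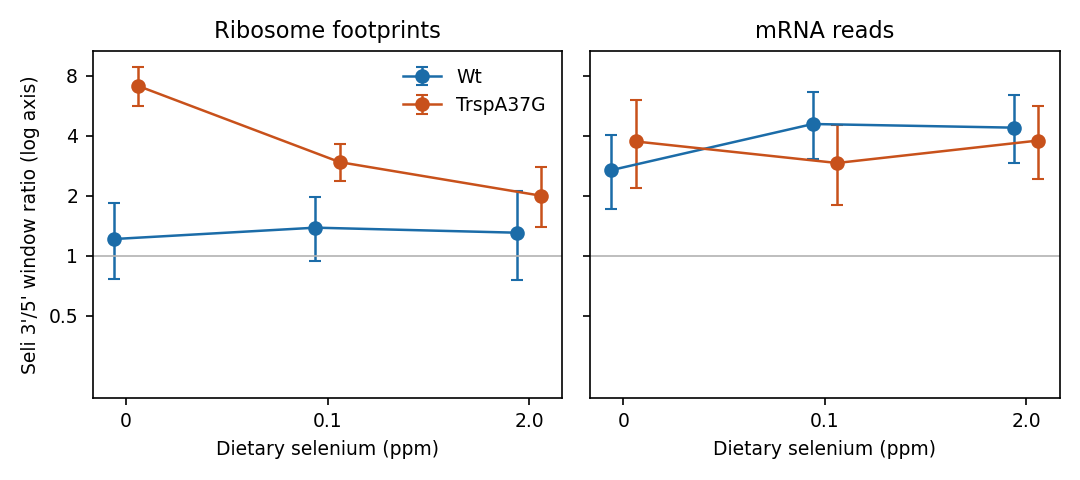
Ratio of read density in the 3' window to that in the 5' window of Seli (log axis) for ribosome footprints on the left and mRNA reads on the right, by diet (ppm selenium) and genotype. Points are single libraries and bars are 95% counting intervals. Footprint ratios run from 1.21 to 1.38 in Wt and from 2.00 to 7.11 in TrspA37G, whereas the mRNA ratios of both genotypes lie between 2.69 and 4.58 with overlapping intervals.

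The 3'/5' ratio of Seli was 5.86-fold higher in TrspA37G than in Wt at 0 ppm (3.67 to 9.37) and 2.13-fold higher at 0.1 ppm (1.41 to 3.22), both called. At 2.0 ppm it was 1.53-fold higher with an interval of 0.832 to 2.93. Calls in the higher direction were 22.2% of 9 genes at 0 ppm (Seli and Sepx1) and 9.09% of 11 genes at 0.1 ppm (Seli), and the medians were -0.10, -0.47 and -0.22 (log2). Within TrspA37G the ratio was 2.41-fold higher at 0 than at 0.1 ppm (1.78 to 3.26), where 70% of 10 genes were called lower and Seli, 10%, higher. The difference of that response from Wt was 1.46 (log2, 0.56 to 2.36), a direction in which 40% of the genes were called. At 2.0 against 0 ppm the TrspA37G ratio was 3.55-fold lower (2.35 to 5.46) and called, with 11.1% of 9 genes called lower and 66.7% higher.

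A share of ribosomes cannot exceed 1, and the ratio of Seli was above 1 in all 6 footprint libraries. In Wt its intervals include 1, and in TrspA37G they lie above 1. The ratio was above 1 in the mRNA reads of Seli as well. In mRNA it was 2.69, 4.58 and 4.39 in Wt and 3.74, 2.92 and 3.79 in TrspA37G at 0, 0.1 and 2.0 ppm, from 18 to 31 reads in the 3' window. The genotypes did not differ in it beyond counting error, with 1.39-fold (0.70 to 2.73) at 0 ppm, 1.57-fold lower (0.857 to 2.92) at 0.1 ppm and 1.16-fold lower (0.643 to 2.10) at 2.0 ppm.

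Divided by the mRNA ratio of the same genotype and diet, the footprint ratio of Seli was 0.451, 0.302 and 0.297 in Wt and 1.90, 1.01 and 0.528 in TrspA37G. The interval of TrspA37G at 0 ppm, 1.12 to 3.21, lies above 1, so this value cannot be read as a share of ribosomes either. On this scale TrspA37G was 4.21-fold higher at 0 ppm (1.92 to 9.21) and 3.35-fold higher at 0.1 ppm (1.66 to 6.75), both called, against 22.2% and 11.1% of 9 genes called higher. At 2.0 ppm the value was 1.78-fold (0.796 to 3.97), and 33.3% of the genes were called lower. Within TrspA37G, 0 against 0.1 ppm came to 1.88-fold (0.920 to 3.84) and was no longer called, and the genotype difference of that response was 0.33 (log2, -1.19 to 1.85). At 2.0 against 0 ppm the value was 3.59-fold lower (1.71 to 7.54), still called, with Seli the 11.1% of 9 genes called lower and 55.6% called higher. The genotype difference of that response was -1.24 (-2.86 to 0.38) and was not called.

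Seen as shares of the coding window, 86 of 854 footprints of TrspA37G at 0 ppm lay in the 3' window, 10.1% (exact 95% interval 8.13 to 12.3), against 1.91% (1.21 to 2.85) of 1204 in Wt. The window makes up 1.58% of the length. The share was 4.54% against 2.16% at 0.1 ppm and 3.08% against 2.06% at 2.0 ppm. In the 18 nt that separate the windows and are thought to hold the UGA codon, TrspA37G had 3.28% of its footprints at 0 ppm (2.19 to 4.70), 1.37% at 0.1 ppm and 2.57% at 2.0 ppm. Wt had 1.74%, 2.37% and 1.45% there. Of the mRNA reads of the coding window, Wt had 4.52%, 3.05% and 5.66% in these 18 nt at 0, 0.1 and 2.0 ppm. TrspA37G had 3.11%, 4.36% and 3.16%, so the mRNA reads were also above the share of length there.

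**Figure D4:**
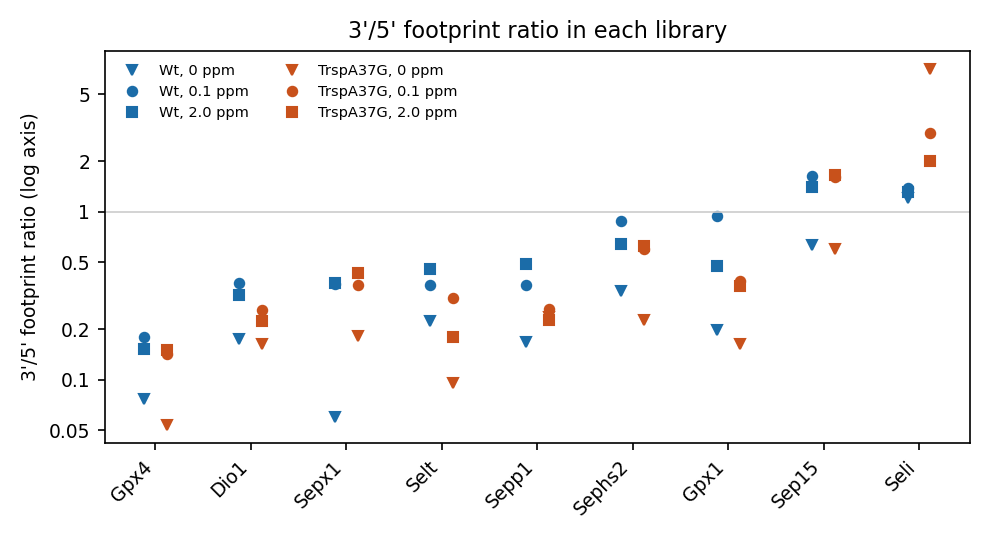
Ratio of 3' to 5' footprint density (log axis) for the 9 genes with footprints in the 3' window of all 6 footprint libraries and at least 10 in both windows together. Each symbol is 1 library, blue for Wt and orange for TrspA37G, with the shape giving the diet. Seli spans 1.21 to 7.11, Sep15 0.598 to 1.65, and the other 7 genes stay under 1, with the 3' window of Seli the shortest of the 9.

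Among these 9 genes, Sepx1, whose 3' window is the next shortest, had ratios from 0.0600 to 0.431. Gpx4, glutathione peroxidase 4 with a 3' window of 360 nt, had ratios from 0.0540 to 0.179. In Wt at 0 against 0.1 ppm the ratio was called lower in 66.7% of 12 genes, with a median of -1.18 (log2), and Seli differed by -0.19 (-0.98 to 0.60). How far the short window moves the values of Seli was not tested.

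In the late-UGA list of 7 genes, mRNA at 0 against 0.1 ppm in TrspA37G was called lower for 3 of 7 (Seli, whose own values chose it, Txnrd2 and Txnrd3), against 30% of all 20 genes, with a median of -0.32 (log2) beside -0.44 for all 20 genes. Thioredoxin reductases keep thioredoxin reduced, Txnrd1 in the cytosol and Txnrd2 in mitochondria. At 0.1 ppm Seli had the highest TrspA37G to Wt ratio of the list in mRNA (0.57) and in coding-window footprints (0.58), and Txnrd3 (-1.02, mRNA) and Txnrd2 (-1.58, footprints) had the lowest. The mRNA values at 0.1 ppm were among those that chose Seli, so nothing is read from its place in mRNA. The list was chosen with earlier results of these data known.

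The membrane list holds Seli, Selk, Sels, Selt, Sepn1 and Dio1. Selk and Sels act in degradation of proteins at the endoplasmic reticulum, Sepn1 in calcium handling there, and Dio1 activates thyroid hormone in liver. At 0 against 0.1 ppm in TrspA37G, 2 of 6 were called lower in mRNA (Dio1 and Seli, whose own values chose it) against 30% of all 20 genes. The median of the list, Seli included, was -0.39 (log2) beside -0.44 for all genes, so nothing is read from this count or median. In coding-window footprints 5 of 6 were called lower against 70%, with a median of -1.27 beside -1.08 for all genes. The exception was Sels at -0.19. In Wt 0 of 6 were called in mRNA, where 20% of all genes were called lower, and 2 of 6 were called lower in footprints (Selk and Selt), where 55% were.

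Over all 6 libraries the mean of Seli mRNA was 18.2 RPKM, the 14th highest of 23 genes, below Selk (25.3) and above Txnrd2 (7.15). The libraries of Seli ranged from 12.3 to 24.2 RPKM and those of Selk from 21.5 to 30.0, so these overlapped, while those of Txnrd2, from 4.89 to 9.99, did not reach Seli. In coding-window footprints Seli was ninth, with a mean of 43.6 RPFKM between Txnrd1 (45.1) and Dio1 (41.4), whose libraries overlap its own.

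The gene whose mRNA pattern over the 6 libraries was most like that of Seli was Dio1, with Pearson r = 0.91 (log2 RPKM, 19 other genes compared). Its values were 77.6, 76.8 and 108 RPKM in Wt and 28.8, 135 and 130 in TrspA37G at 0, 0.1 and 2.0 ppm, so that, as for Seli, TrspA37G gave both the lowest and the highest value. Sep15 (r = 0.59) and Selt (r = 0.57) came next and Sepx1 was least alike (r = -0.33). In coding-window footprints Dio1 was again first (r = 0.87), before Sepn1 (0.80), which has under 1 RPFKM, and Gpx4 (0.71), and Sepx1 was last (-0.35). By Spearman's rho the order differs: Dio1 stays first in mRNA (0.94), but in footprints Selk (0.77) and Gpx4 (0.49) come before Dio1 and Sepn1 (0.37 each). These libraries share their scaling, so the values describe likeness only.

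**Figure D5:**
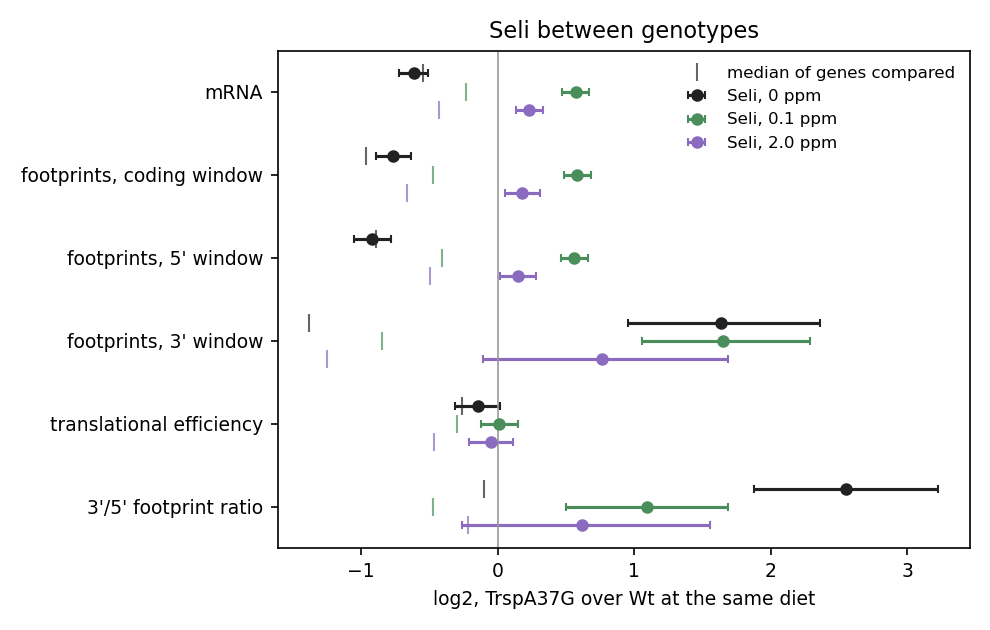
Seli in TrspA37G over Wt at the same diet (log2, horizontal) for 6 quantities, with the diets in black (0 ppm), green (0.1 ppm) and violet (2.0 ppm). Points are ratios of 2 libraries with 95% counting intervals, and vertical ticks are the medians of the genes compared. The first 3 quantities are below 0 at 0 ppm and above it at the other diets, translational efficiency lies near 0, and the 3' window and the 3'/5' ratio lie above 0 at all 3 diets; relative to the medians, coding-window footprints turn above 0 at 0 ppm.

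Side by side, Seli mRNA, coding-window footprints and 5' footprints were lower in TrspA37G than in Wt at 0 ppm, by 0.62, 0.77 and 0.92 (log2), and its 3' footprints were 1.63 higher. The medians at 0 ppm were -0.55 for mRNA, -0.96 for coding-window footprints and -0.89 for 5' footprints, where 9 of 16 genes were called lower. Seli thus lay near the median in mRNA and 5' footprints and above it in coding-window footprints. At 0.1 ppm the same quantities were 0.57, 0.58, 0.56 and 1.65 higher, and at 2.0 ppm 0.23, 0.18, 0.15 and 0.76 higher. Of these quantities, the 3' window is the one in which Seli in TrspA37G was above Wt at every diet as deposited. At 2.0 ppm its interval includes no difference. The 3'/5' footprint ratio, which holds the same 3' footprints, was likewise higher at all 3 diets. The interval of that ratio at 2.0 ppm (0.832 to 2.93-fold) also includes no difference.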

How the data were processed

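Frozen livers were homogenised in a bead mill with cycloheximide, RNase 1 digestion and ultracentrifugation gave monosome footprints, and a small RNA kit served for the libraries, per the labels' protocols. Reads were mapped with Bowtie to mm9, per the submitters' processing notes; versions and filters are not stated there. The authors deposited 4 tables of 23 genes in RPKM (mRNA) and RPFKM (footprints, the same unit), per the file headers, over the whole mRNA, over the coding sequence without its first 15 and last 3 codons, and 5' and 3' of the UGA codon. Column 8 of 3 tables carries both the headings mRNA and RPFKM and was read as footprints. Values are scaled to the mapped reads of a library, a total in which a few abundant RNAs can move every value. The tables are limited to selenoprotein genes, so the scaling cannot be checked against other genes.

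Mapped reads per library were found as the number that makes RPKM values whole reads: at a coding window 57 nt shorter than annotated without the stop codon (54 nt would be 15 and 3 codons), 95.3% of 258 coding values came out whole within 0.001, against at most 8.53% at other lengths tried. All 795 values above 0 then gave whole reads; 641 used annotated lengths, and 154, the whole-mRNA values among them, the smallest fitting length (6769 nt for Seli, annotated 6803 nt), where wholeness is built in. All 23 gene identifiers matched GENCODE M21 (GRCm38), used for structure only. Ratios have exact conditional 95% intervals (Clopper-Pearson). Translational efficiency or the 3'/5' ratio compared between 2 groups has exact conditional odds ratios up to 2000 reads and log-normal intervals above. Differences between diet responses and all values divided by the mRNA ratio have log-normal intervals at any number of reads. Intervals were computed with Python 3.11.15, numpy 2.4.6, pandas 2.3.3 and scipy 1.17.1. Figures used matplotlib 3.10.9. Read recovery at known lengths, intervals of ratios and exact intervals of ratios of ratios were tested on simulated counts. Fitted lengths and log-normal intervals were not. Differences of 1.5-fold with an interval clear of no difference, at least 10 reads over both libraries and 1 in each, are called. Named were Seli, the 3 genes most like and the 1 least like it, its neighbours in level, members of the 2 lists, and genes that were called or of opposite sign. The genes, lists and rules were chosen with earlier results of these data known. Alternatives were median-ratio scaling, a pseudocount of 1, other mRNA regions, 2-fold calls and read minimums of 1 per library or 50.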

Additional observations from a re-analysis of the deposited data

Results flagged for a closer look

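Seli mRNA differed between the diets with 0 and 0.1 ppm selenium in opposite directions in the genotypes, 0.21 higher in Wt (log2, 0.12 to 0.31) and 0.97 lower in TrspA37G (interval -1.09 to -0.86), a difference of -1.19. It did so again between 2.0 and 0 ppm, with -0.14 in Wt (-0.23 to -0.04) and 0.71 in TrspA37G (0.60 to 0.82), a difference of 0.85. Over the coding window, mRNA at 2.0 against 0 ppm was 0.051 in Wt (-0.13 to 0.23) and 0.38 in TrspA37G, so the opposite signs were lost there. Both share the libraries at 0 ppm, both belong to the pattern that chose the gene, and neither difference was tested, since each genotype and diet has 1 mRNA library.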

How the results depend on the processing

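No paired analysis was possible because each group has 1 library, so no replicates can be paired; pairing by diet gave only the exact permutation over 3 diets. Of 251 values recomputed for 82 results under other settings, 197 kept their direction or interval and their side of the call. The others, as log2 values, follow. With median-ratio scaling, mRNA came to -0.53 (TrspA37G 0 against 0.1 ppm), 0.24 (TrspA37G 2.0 against 0 ppm), and -0.068, 0.80 and 0.66 between genotypes at 0, 0.1 and 2.0 ppm. Coding-window footprints came to 0.82 (Wt) and -0.18 (TrspA37G) at 0 against 0.1 ppm and to 0.20, turning its direction, 1.06 and 0.85 between genotypes. 5' footprints came to -0.69 (TrspA37G 2.0 against 0.1 ppm) and to -0.024, 0.97 and 0.64 between genotypes. 3' footprints at 0 against 0.1 ppm turned to 1.00 (Wt) and 1.95 (TrspA37G), and were 2.02 between genotypes at 2.0 ppm. Translational efficiency came to 0.38 (Wt) and 0.017 (TrspA37G) at 0 against 0.1 ppm and to 0.11 and 0.42 between genotypes at 0 and 2.0 ppm. With mRNA over the coding window, mRNA came to 0.051 (Wt) and 0.38 (TrspA37G) at 2.0 against 0 ppm, 0.33 for their difference, -0.46 and -0.13 between genotypes at 0 and 2.0 ppm, and -0.61 for the difference of responses at 2.0 against 0.1 ppm. Translational efficiency was then 0.31 between genotypes at 2.0 ppm and 0.21 for that difference of responses. With mRNA over the 5' window the values were 0.38 (TrspA37G 2.0 against 0 ppm), 0.39 for its difference from Wt, and -0.46 and -0.076 between genotypes. Adding 1 to the values gave -0.58 for mRNA between genotypes at 0 ppm. Leaving out the footprints between the windows gave 0.60 between genotypes at 0.1 ppm. Divided by the mRNA ratio, the 3'/5' ratio came to 0.91 (TrspA37G 0 against 0.1 ppm), 0.33 for its difference from Wt and -1.24 for that at 2.0 against 0 ppm. At 2-fold, called genes numbered 3 (TrspA37G 0 against 0.1 ppm), 4, 3 and 3 (genotypes at 0, 0.1 and 2.0 ppm) in mRNA, 7 (Wt 0 against 0.1 ppm) and 7 (genotypes at 0 ppm) in footprints, and 2, 2 and 1 in efficiency. With median-ratio scaling they numbered 5 in mRNA and 5 in footprints (genotypes at 0 ppm), 7 in footprints and 4 in efficiency (TrspA37G 0 against 0.1 ppm), and 1 in efficiency (genotypes at 0 ppm). Of the 3 genes most like Seli in mRNA, 1 stayed with median-ratio scaling and 1 over the coding window. The cause was not tested; the median is itself taken over selenoprotein genes.

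Each value rests on 1 library, so the spread between mice is unknown and intervals cover counting error only. The 3' window of Seli held 17 to 96 footprints and 18 to 31 mRNA reads, which leaves wide intervals at 2.0 ppm.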
